A study of Mus musculus with 6 samples.

Results

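The miRNAs described here were mouse mature miRNAs named from miR-6896 to miR-7093, a late-numbered run of miRBase names of which most sit on hairpins at the ends of introns. Members were chosen by that number and by their summed count, which had to be at least 10 over the 6 libraries, with 1 row per mature name (the row with the highest total). These rules gave 115 members of the 1915 mature names in the table, on 92 precursors. In all, 400 names fell in the number range, of which 94 had no count in any library and 191 had between 1 and 9 counts.

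Small RNA was sequenced from cultured bone marrow cells of mice. Such endothelial progenitor cells (EPCs) can take part in repair of the vessel lining. The CAP group was 3 libraries from male C57BL/6 mice exposed by inhalation to concentrated fine particles of outdoor air, and the air group 3 libraries from male C57BL/6 mice exposed to filtered air. The labels name no genetic change and give 12 days of culture for both groups. The 3 mice of each group shared 1 cage, so that cage and exposure cannot be told apart, and the age of the mice is not in the labels. P-values measure the spread between 3 libraries of a group.

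Most miRNAs are cut from long transcripts by the nuclease Drosha, exported, and trimmed by Dicer, and 1 strand of the duplex (the 5p or the 3p arm) guides the silencing complex to target mRNAs through its seed, bases 2 to 8. A mirtron is a short intron that is spliced out, opened from its lariat and folded into a hairpin that Dicer can use directly, so that splicing takes the place of Drosha. In a tailed mirtron only 1 end of the hairpin is set by the splice site, and the rest of the intron is removed by other nucleases. Introns nearly always begin with GU and end with AG. Mirtrons are in general far less abundant than classical miRNAs.

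The mature sequences below belong to the members with the highest summed counts and to the 1 further member with an unadjusted p under 0.05. They are RefSeq sequences on GRCm38.p6, written 5′ to 3′ with the seed in capitals.
miR-7043-3p: aCUGUGCCucucuguuuucag
miR-7091-5p: gUAGGGGUgauagauuccauggc
miR-7062-5p: uGGAGGCCagcuuguggagugucu
miR-6937-5p: uAGCUGUAagggcugggucugugu
miR-6944-3p: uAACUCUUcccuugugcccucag
miR-7025-3p: cAGCACAAcuccagcucaccag
miR-7014-5p: uUGGGUGCuguggaagggacag
miR-6948-3p: uGUCCUUCcugucugaccaca
miR-6967-3p: uCAUCUUUaucucuccccag
miR-7042-3p: uGUCCCUUuguuuucucucag
miR-6955-3p: aCACCUGUcuccuuugcccaca
miR-6951-5p and miR-6983-3p, also among the 12 most abundant, had no sequence entry. None of these 11 shares a seed with another. Of the 7 3p sequences, 5 end in AG, the last bases of an intron, although the AG of miR-7025-3p is not at an intron end, and these 3p sequences are mostly C and U, whereas the 5p sequences are rich in G.

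Of the 115 members, 101 were matched to a mature sequence and held 99 distinct seeds. Only 2 seeds were held by more than 1 member, AGGAGGA by miR-6916-5p and miR-6942-5p and CACCCUG by miR-7018-3p and miR-7068-3p. A further 5 members shared a seed with a name outside the range that had at least 10 counts. They were miR-6967-5p with miR-1943-5p, miR-7061-3p with miR-188-5p, miR-7014-3p with miR-130b-5p, miR-7069-3p with miR-18a-3p and miR-6915-5p with miR-540-3p. Seed sharing says nothing here of targets, which were not measured.

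The hairpins were compared with the annotated introns to describe their position. The rule used number and count alone, but the number range was taken as rich in mirtrons. The shares below describe that range and are not an independent check of it. Of the 92 precursors that held a member, 80 were matched to a position, all of them within or across an intron of a protein-coding gene, in 79 distinct host genes. At a distance of at most 5 bases, 76 of these 80 (95.0%) had an end at an intron end. The 3p end alone lay at the end of the intron in 68, both ends lay at intron ends in 7, the 5p end alone in 1, and neither end in 4. At a distance of at most 10 bases, only 1 of the 80, mir-7025, had neither end at an intron end. Among all 178 matched precursors of the number range, 170 (95.5%) had an end at an intron end, against 42 of 779 matched precursors (5.39%) with other numbers, of which 386 touched no intron. No test was run on these shares.

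**Figure D1:**
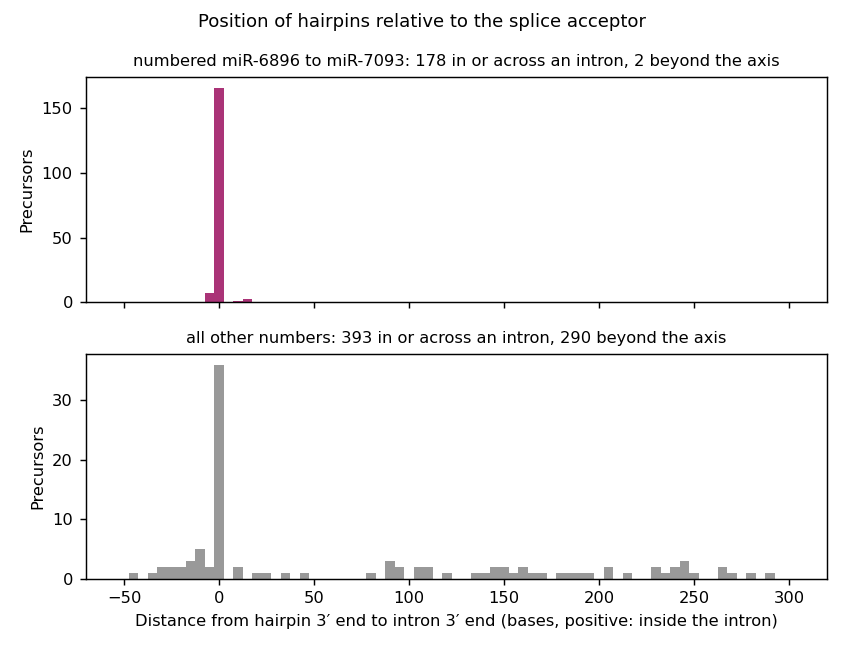
Histograms of the distance in bases from the 3′ end of each hairpin to the 3′ end of the intron it lies in, for precursors numbered mir-6896 to mir-7093 (upper panel, n = 178) and for all other precursors in or across an intron (lower panel, n = 393), with the number of precursors on the y axis. Nearly all of the upper panel falls in the bar at 0, while most of the 393 others lie elsewhere or beyond the axis.

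The matched hairpins with a member were 54 to 101 bases long, with a median of 67. The introns of those at an intron end were mostly longer than the hairpin, with a median of 427.5 bases and a range of 66 to 36269. The 7 whole-intron hairpins lay in introns of 73 to 96 bases. In 12 of the 80, the hairpin also lay inside an exon of another annotated transcript, so that its reads cannot be told from those of that exon. Among these were mir-7014, mir-7068, mir-7035 and mir-6936, whose arms are named in other paragraphs.

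The hairpins of 4 members show these positions. They are RefSeq sequences on GRCm38.p6 with the named arm in capitals.
miR-7043-3p: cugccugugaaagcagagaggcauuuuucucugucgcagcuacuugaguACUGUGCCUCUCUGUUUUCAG
miR-7091-5p: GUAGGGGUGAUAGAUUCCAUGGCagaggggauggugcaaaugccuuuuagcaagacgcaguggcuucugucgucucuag
miR-6937-5p: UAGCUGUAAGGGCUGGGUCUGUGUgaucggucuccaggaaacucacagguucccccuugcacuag
miR-7025-3p: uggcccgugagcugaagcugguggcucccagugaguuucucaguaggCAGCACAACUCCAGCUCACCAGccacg
The mir-7043 hairpin (chr6:116645978-116646047, minus strand) ends with the AG that closes a 1589-base intron of Rassf4, a Ras-association domain gene, and its start lies 1519 bases into that intron. The mir-7091 hairpin (chrX:74274027-74274105, minus strand) is a whole 79-base intron of Dnase1l1, a gene of the DNase I family, from its GU to its AG. The mir-6937 hairpin (chr12:28679325-28679389, plus strand) closes a 1492-base intron of Adi1, an enzyme of methionine salvage. The mir-7025 hairpin (chr5:75176831-75176904, plus strand), at Pdgfra, the gene of a platelet-derived growth factor receptor, is an exception, since it begins 30 bases before an intron of 784 bases and has neither end at an intron end.

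The ends of the mature sequences were counted as well, and these are not independent of the position of the hairpins. Among members of the 3p arm with a sequence, 39 of 56 (69.6%) ended in AG, against 27 of 318 (8.49%) other 3p names with at least 10 counts. Their median content of C and U was 72.7%, against 54.5%. Members of the 5p arm held a median of 40.9% G, against 27.3% in other 5p names. Among them 3 of 45 (6.67%) began with GU, against 13 of 285 (4.56%) other 5p names. Those 3 were miR-7091-5p, miR-7068-5p and miR-6936-5p, each on a hairpin whose 5′ end lies at the start of its intron. Among names of the range below 10 counts, 99 of 120 3p arms (82.5%) ended in AG, and this share was not tested against that of the members.

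Reads of these miRNAs were few. Library totals with 1 row per name were 13831209 to 18107578 counts, and the 115 members together had 968, 816 and 714 counts in air replicates 1 to 3 and 1219, 1468 and 832 in CAP replicates 1 to 3. The members were selected on summed counts, so levels are given as a description. The median member had 27 counts over all libraries, against 456 for the 873 other names with at least 10. Of the members, 40 had 10 to 19 counts, 51 had 20 to 49, 17 had 50 to 99 and 7 had 100 or more. miR-7043-3p alone held 1760 of the 6017 member counts (29.3%), and the next 11 members together held 22.9%. At the threshold, 6 members had exactly 10 counts (miR-6947-5p, miR-6962-3p, miR-6994-5p, miR-7022-5p, miR-7035-5p and miR-7071-3p), and 4 names just below it had 9 (miR-6900-5p, miR-6938-3p, miR-6946-3p and miR-7027-3p).

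CAP replicate 1 stood apart from the other libraries. Liver-restricted miR-122-5p was at 24731 CPM (counts relative to the TMM-scaled size of the library) there and at 75.0 to 277 CPM in the other 5, the summed erythroid markers (miR-451a and miR-144-3p) were at 63.7 CPM against 10.2 to 21.9, and the summed epithelial markers (miR-200a-3p and miR-200c-3p) at 65.3 CPM against 27.4 to 43.4. Of these, miR-200a-3p alone was highest there (54.3 CPM), while miR-200c-3p was higher in every CAP library (8.14 to 11.6 CPM) than in air (6.06 to 7.96 CPM). The endothelial miR-126a-3p was present at 749 to 4005 CPM and the haematopoietic miR-223-3p at 24739 to 32064 CPM, so that haematopoietic markers were abundant in every library of these cultures. In such bulk RNA, more cells of a type and more of a miRNA per cell cannot be told apart. Of the 4 stromal markers (miR-143-3p, miR-145a-5p, miR-199a-3p and miR-214-3p), 2 were lower in every CAP library. miR-214-3p was at 527, 497 and 669 CPM in air and 271, 208 and 354 CPM in CAP, and miR-145a-5p at 1955, 1927 and 2142 CPM in air and 1384, 1533 and 1744 CPM in CAP. Their summed list ran from 47692 to 59320 CPM in air and from 35667 to 51140 CPM in CAP. The part of the stromal, liver, erythroid and epithelial markers in the values below was not tested, and values without CAP replicate 1 are given where a result rests on it.

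Detection per library differed little. At least 1 count was found for 108, 106 and 109 members in air replicates 1 to 3 and for 103, 113 and 105 in CAP replicates 1 to 3, so that the groups overlapped. CAP replicate 2, the deepest library, had the most. At the depth of the smallest library the expected numbers were 105.6, 103.7 and 107.2 in air and 101.4, 109.3 and 105 in CAP. With a minimum of 3 counts, 83, 75 and 80 members were found in air and 76, 89 and 69 in CAP. A count of 0 in a library allows a level of up to 0.166 to 0.222 CPM, for counting error only.

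All 6 libraries held 81 of the 115 members (70.4%), against 789 of the 873 other names (90.4%). Names of like total were found about as often. Among names with 10 to 19 counts, 32.5% of members and 24.7% of others were in all 6 libraries, and among those with 20 to 49 counts 86.3% and 80.2%. At 50 to 237 counts the shares were 100% and 98.3%. No test was run on these shares.

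The comparison of CAP with air asked which of these miRNAs differ in EPCs from exposed mice. No member passed the adjusted threshold of 0.05 in edgeR's quasi-likelihood test, and neither did any of the 677 names tested (0.0%). Only 17 of the 115 members passed edgeR's filter on low counts, and 98 were too scarce to be tested. By sign alone 9 of the 17 were higher and 8 lower in CAP, with a median log2 fold change (log2 FC) of 0.02, against 0.00 for the 660 others. At an unadjusted p under 0.05, 2 tested members were higher (miR-7043-3p and miR-6955-3p) and 0 lower, where 11.5% of all tested names were higher and 9.45% lower. The share of members was thus near that of all tested names. One of the 17, miR-6955-3p, was past the level of the filter in no air library and in all 3 CAP libraries. It could enter the test only by being higher in CAP, so that counts over the 17 say nothing of the members as a whole.

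miR-7043-3p, the most abundant member, had 262, 177 and 97 counts in air replicates 1 to 3 and 420, 549 and 255 in CAP replicates 1 to 3. In CPM the air libraries were at 15.1, 10.9 and 6.41 and the CAP libraries at 26.9, 30.4 and 18.9. Every CAP library lay above every air library, although the spread within each group was wide. The log2 FC was 1.23 (SE 0.33), with an unadjusted p of 0.0067 and an adjusted p of 0.146 in edgeR's quasi-likelihood test. The call depended on the tool, since the adjusted p was 0.0023 with DESeq2, 0.036 with edgeR's likelihood ratio test and 0.038 with edgeR without a filter. Without CAP replicate 1 the log2 FC was 1.12 and the adjusted p by edgeR 0.149. The study lists this miRNA as changed in these same libraries, so its choice as a named member is not independent of them.

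miR-6955-3p lies in a 412-base intron of Gga1, an adaptor of Golgi traffic, at chr15:78891891-78891912, plus strand. It had 4, 5 and 7 counts in air and 12, 12 and 14 in CAP, or 0.231, 0.309 and 0.463 CPM against 0.768, 0.665 and 1.04 CPM. The groups did not overlap, at counts where sampling error is large. Its log2 FC was 1.28 (SE 0.41), with an unadjusted p of 0.017 and an adjusted p of 0.161 in edgeR. Without CAP replicate 1 the log2 FC was 1.27, with an adjusted p by edgeR of 0.210. Leaving out air replicate 1, air replicate 2 or CAP replicate 3 took its unadjusted p in edgeR to 0.070, 0.060 and 0.070.

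miR-6951-5p was the third tested member without overlap between groups, at 0.924, 0.988 and 1.19 CPM in air and 1.73, 1.44 and 1.48 CPM in CAP. Its log2 FC was 0.58 (SE 0.25), with an unadjusted p of 0.051 and an adjusted p of 0.240 in edgeR. CPM did not overlap in 3 of the 17 tested members, each of them higher in CAP, where 29.0% of all tested names did not overlap. Of these 3, miR-6955-3p could enter the test only by being higher in CAP, so its direction is no support.

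Among the 12 members of highest summed count, the other tested ones overlapped between groups. miR-7091-5p had 27, 41 and 28 counts in air and 35, 79 and 27 in CAP (1.98 ± 0.50 against 2.87 ± 1.31 CPM, SD, n = 3), with CAP replicate 2 high and the other CAP libraries within or near the air range. Its log2 FC was 0.55 (SE 0.36). miR-7062-5p, in an 84-base intron of the metalloprotease gene Adam8, had 33, 44 and 35 counts in air and 28, 44 and 31 in CAP (2.31 ± 0.40 against 2.17 ± 0.34 CPM). The level was alike within the spread of either group, with a log2 FC of -0.09 (SE 0.24).

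miR-6944-3p comes from a whole 96-base intron of Dbn1, the gene of the actin-binding protein drebrin. It had 25, 25 and 23 counts in air and 24, 22 and 16 in CAP, the steadiest of the abundant members, with a log2 FC of -0.19 (SE 0.24). miR-7025-3p, at the Pdgfra gene, had 26, 22 and 19 counts in air and 17, 21 and 22 in CAP, with a log2 FC of -0.10 (SE 0.27). Neither differed beyond the spread of its libraries.

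miR-7014-5p, from an intron of Ecm1, the gene of extracellular matrix protein 1, had 19, 9 and 16 counts in air and 9, 18 and 13 in CAP (log2 FC -0.10, SE 0.39). miR-6948-3p had 13, 23 and 9 in air and 13, 15 and 8 in CAP (log2 FC -0.28, SE 0.41). The difference between groups took either sign in both of these members, depending on which library was left out. miR-6983-3p had 11, 21 and 2 counts in air and 16, 17 and 12 in CAP, with air replicate 3 far below the rest (log2 FC 0.45, SE 0.62). miR-6967-3p had 12, 17 and 15 counts in air and 11, 13 and 6 in CAP. It showed the lowest log2 FC of the tested members, at -0.52 (SE 0.35, adjusted p = 0.414 by edgeR). miR-7042-3p, from an intron of Tatdn2, had 11, 5 and 9 counts in air and 23, 15 and 2 in CAP, so that the CAP libraries spanned a wider range than the air libraries. Its log2 FC was 0.69 (SE 0.69). The remaining 5 tested members, miR-6911-3p, miR-6919-5p, miR-6940-3p, miR-6946-5p and miR-7082-3p, had log2 FC between -0.06 and 0.16.

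**Figure D2:**
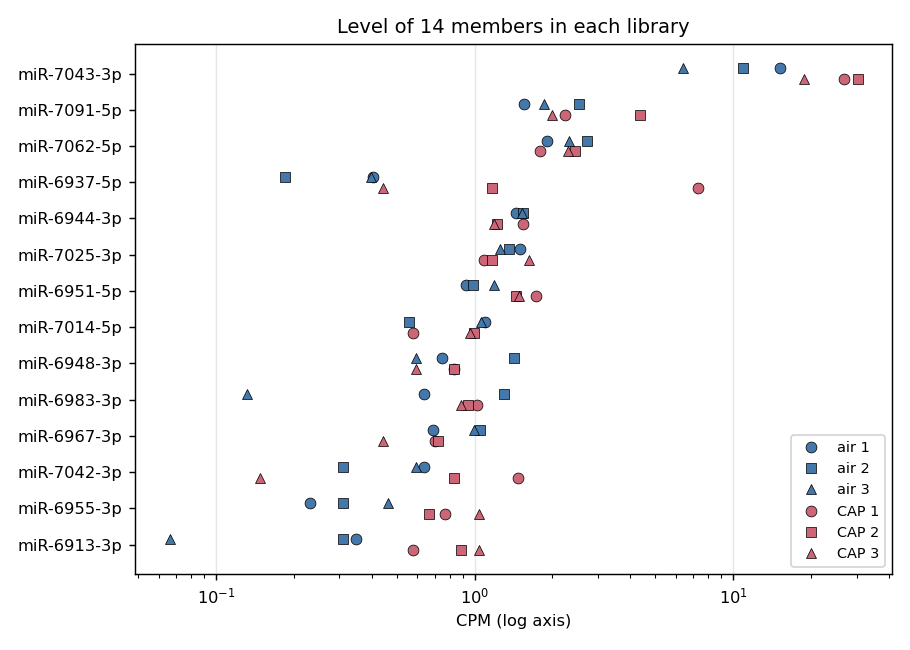
Level in CPM (x axis, log scale) of 14 members in each of the 6 libraries, with air libraries in blue and CAP libraries in red and 1 marker shape per replicate number. The 12 members of highest summed count are shown from the top, followed by miR-6955-3p and miR-6913-3p. Red lies to the right of blue without overlap for miR-7043-3p, miR-6937-5p, miR-6951-5p, miR-6955-3p and miR-6913-3p, and the miR-6937-5p points in CAP run from 0.444 to 7.29 CPM.

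**Figure D3:**
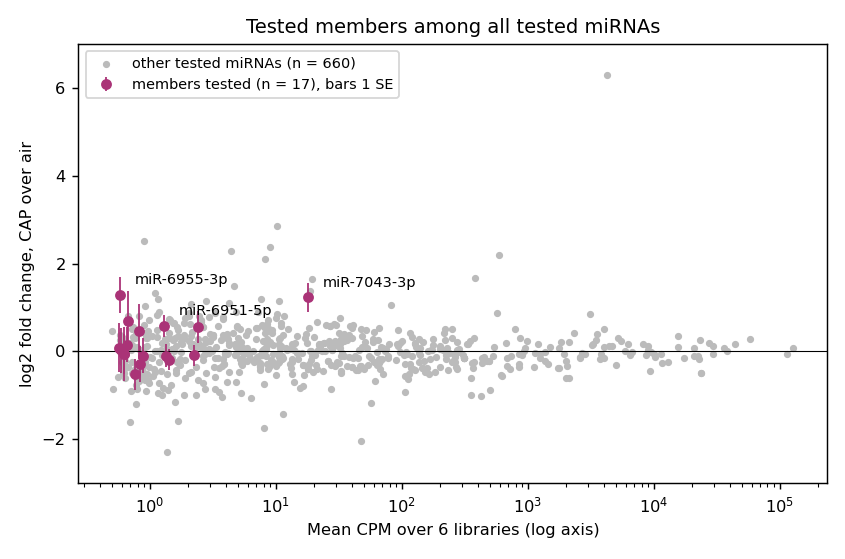
The log2 fold change of CAP over air (y axis) against the mean CPM over 6 libraries (x axis, log scale) for the 17 tested members (purple, bars of 1 SE) and the 660 other tested names (grey). Members lie at the low end of the scale except miR-7043-3p, and miR-6955-3p and miR-7043-3p stand above 1 on the log2 scale.

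miR-6937-5p, which the study also lists as changed in these libraries, rested on 1 library. It had 7, 3 and 6 counts in air and 114, 21 and 6 in CAP, or 0.404, 0.185 and 0.397 CPM against 7.29, 1.16 and 0.444 CPM. CAP replicate 1 held 114 of its 157 counts, CAP replicate 2 was intermediate, and CAP replicate 3 was barely above the highest air library. It did not pass edgeR's filter. In edgeR without a filter its log2 FC was 3.12 (SE 0.74) with an adjusted p of 0.054, and with DESeq2 on names of at least 10 counts 3.15 with an adjusted p of 0.0052. Without CAP replicate 1 these were 1.29 (adjusted p = 0.300 by edgeR without a filter) and 1.30 (unadjusted p = 0.144 by DESeq2, which gave no adjusted p). The library that carried it is the one with the high miR-122-5p, and the part of those markers in this value was not tested.

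The other arm of the same hairpin went the other way. miR-6937-3p had 4, 3 and 3 counts in air and 0, 1 and 0 in CAP, with no overlap between groups, and a log2 FC of -2.90 (SE 1.25, unadjusted p = 0.032, adjusted p = 0.333) in edgeR without a filter. The 0 counts in CAP replicates 1 and 3 allow up to 0.192 and 0.222 CPM, close to the 0.185 to 0.231 CPM of the air libraries, so that absence cannot be told from a like level at this depth.

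Without a filter every member could be fitted. At an unadjusted p under 0.05 in edgeR, 7 of 115 members were higher and 3 lower. Among the 1496 names with any count, which include names under 10 counts, 5.88% were higher and 5.88% lower, 11.8% in all. Of the 873 other names with at least 10 counts, 77 were higher and 83 lower, a larger share than among the members. Taking both directions together, the share of members was above neither. The share of members higher was slightly above the 5.88%, and the share lower was below it. Members mostly had fewer counts than those 873 names, and the difference in share was not tested. Only miR-7043-3p passed the adjusted threshold in that fit, in which 0.869% of names did, and it lost the call without air replicate 3 (adjusted p = 0.099 by edgeR). Apart from the members described above, those at an unadjusted p under 0.05 were named after their values were seen. miR-6913-3p, from an intron of Dohh, the deoxyhypusine hydroxylase gene, had 6, 5 and 1 counts in air and 9, 16 and 14 in CAP (log2 FC 1.72, SE 0.58, adjusted p = 0.180 by edgeR). miR-6970-3p had 2 counts in each air library and 6, 11 and 4 in CAP (log2 FC 1.74, adjusted p = 0.295 by edgeR). Both lay above the air range in every CAP library.

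Also at an unadjusted p under 0.05 in that fit, miR-6936-5p, which starts with the GU of a 66-base intron of the deacylase gene Sirt7, had 0, 2 and 0 counts in air and 4, 5 and 3 in CAP. miR-7057-3p, from an intron of the kinase gene Lrrk1, was higher by 1.78 on the log2 scale, but its groups overlapped. On the lower side, miR-6997-3p, from an intron of Sptan1, a spectrin gene, had 6, 4 and 3 counts in air and 0, 0 and 1 in CAP. miR-7093-3p, from an intron of Armcx3, had 5, 13 and 8 counts in air and 4, 3 and 1 in CAP. None of these passed the adjusted threshold by edgeR.

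Over all 115 members, CPM did not overlap between groups in 15, of which 10 were higher and 5 lower in CAP, where 24.1% of all 988 names with at least 10 counts did not overlap (11.9% higher and 12.1% lower). With DESeq2 on the names that edgeR kept, 1 member (miR-7043-3p) passed the adjusted threshold, where 4.58% of 677 names did. That fit gave an adjusted p to none of the other tested members, so they could not be called. With DESeq2 on names of at least 10 counts, 2 of the 115 members passed (miR-7043-3p and miR-6937-5p), near the 2.23% of 988 names that passed. In the fit on names of at least 10 counts, DESeq2 gave an adjusted p to 11 of the members.

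The summed level of all members was 55.9, 50.4 and 47.2 CPM in air and 78.0, 81.3 and 61.6 CPM in CAP (51.2 ± 4.41 against 73.6 ± 10.6, SD, n = 3), a ratio of 1.44 with no overlap between groups, in the same libraries in which miR-214-3p and miR-145a-5p were lower. Most of this gap came from 2 members. Without miR-7043-3p the sums were 40.8, 39.4 and 40.8 CPM in air and 51.1, 50.9 and 42.7 CPM in CAP, a ratio of 1.20. Without miR-6937-5p as well they were 40.4, 39.3 and 40.4 against 43.8, 49.7 and 42.3 CPM, a ratio of 1.13. The air libraries were closely alike in this remainder, and CAP replicate 3 lay within 2 CPM of the highest of them. For all members, CAP replicates 2 and 3 (81.3 and 61.6 CPM) also lay above every air library when CAP replicate 1 was set aside. No p is given for a sum over members.

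The 5p and 3p arms contributed about equally in number. There were 53 5p members with 2166 counts and 62 3p members with 3851, or 2091 without miR-7043-3p. The 5p share of member counts was 36.2, 37.1 and 43.3% in air and 34.2, 33.6 and 35.3% in CAP, with every CAP library below every air library. Without miR-7043-3p the order reversed. The share was then 49.6, 47.4 and 50.1% in air and 52.2, 53.6 and 51.0% in CAP, with every CAP library above every air library. Without miR-6937-5p as well it was 49.1, 47.2 and 49.6% in air and 44.2, 52.6 and 50.4% in CAP, so that the groups overlapped, with CAP replicate 1 lowest.

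Within single hairpins the arms were often far from equal. Of 98 precursors of the range with at least 10 counts over both arms, 42 had more 5p than 3p counts, 55 more 3p and 1 was equal. The exact 95% binomial interval (Clopper-Pearson, for counting error only) of the 5p share lay above 50% in 31 and below it in 44. At least 90% of counts came from the 5p arm in 21 precursors and from the 3p arm in 24. Both arms were members in 23 precursors.

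The most abundant hairpins showed both kinds. mir-7043 had a 5p share of 1.29% (interval 0.819 to 1.93%), with 23 counts of miR-7043-5p against 1760 of the 3p arm. Its 5p arm was at 3, 3 and 5 counts in air and 2, 6 and 4 in CAP, with a log2 FC of 0.14 (SE 0.74) in edgeR without a filter. Whether the arms differ in fold change was not tested. mir-7091 gave 93.7% from its 5p arm (89.9 to 96.3%), mir-7062 94.7% (90.9 to 97.2%) and mir-6951 96.9%. mir-6944 gave 0% and mir-7025 10.6% (6.03 to 16.8%).

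Other hairpins with both arms among the members were more even. The 5p share was 36.8% (28.4 to 45.9%) at mir-6983, 38.3% (29.6 to 47.6%) at mir-6967-1, 40.9% (31.6 to 50.7%) at mir-7042 and 76.4% (67.3 to 83.9%) at mir-7014. mir-6901, in an intron of the matrix gene Sned1, gave 32.9% and mir-6913 also 32.9%, while mir-7063 gave 82.4% and mir-6916 65.4% (50.9 to 78.0%). The interval spanned equal shares at mir-7042 and also at mir-7013 (61.1%, 46.9 to 74.1%), mir-7061 (51.8%) and mir-7068 (41.5%).

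**Figure D4:**
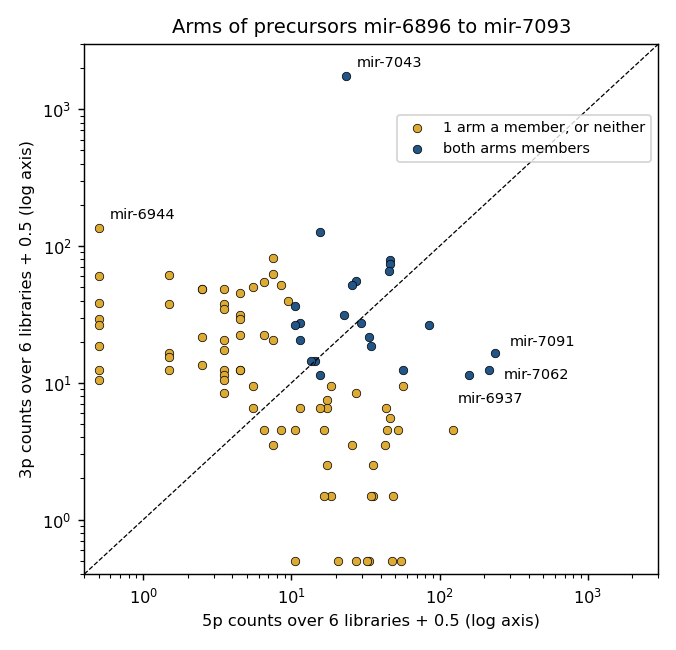
Summed counts over 6 libraries plus 0.5 of the 5p arm (x axis, log scale) and the 3p arm (y axis, log scale) for 98 precursors numbered mir-6896 to mir-7093 with at least 10 counts, in blue where both arms were members. The dashed line marks equal arms. mir-7043 stands alone at the top with 1760 3p counts and mir-7091, mir-7062 and mir-6937 lie at the right with few 3p counts.

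The arm share was compared between groups in 32 precursors with an exact permutation test (two-sided), whose smallest possible p with 3 libraries in each group is 0.1. In 4 precursors (mir-7062, mir-6937, mir-6967-1 and mir-6913) the libraries separated fully and reached that p by the exact test, and the smallest value after Benjamini-Hochberg adjustment over the 32 was 0.8. At mir-6937 the 5p share was 63.6, 50 and 66.7% in air and 100, 95.5 and 100% in CAP (60.1 ± 8.88% against 98.5 ± 2.62%, SD, n = 3), over 6 to 11 reads per air library. CAP replicate 3 held 6 reads of its 5p arm and 0 of its 3p arm. At mir-7062 it was 100, 97.8 and 97.2% in air and 87.5, 89.8 and 96.9% in CAP. At mir-6967-1 it was 29.8 ± 8.49% against 47.5 ± 11.1%, and at mir-6913 48.5 ± 2.62% against 26.7 ± 15.8%. In air replicate 3, mir-6913 held only 1 read of each arm.

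**Figure D5:**
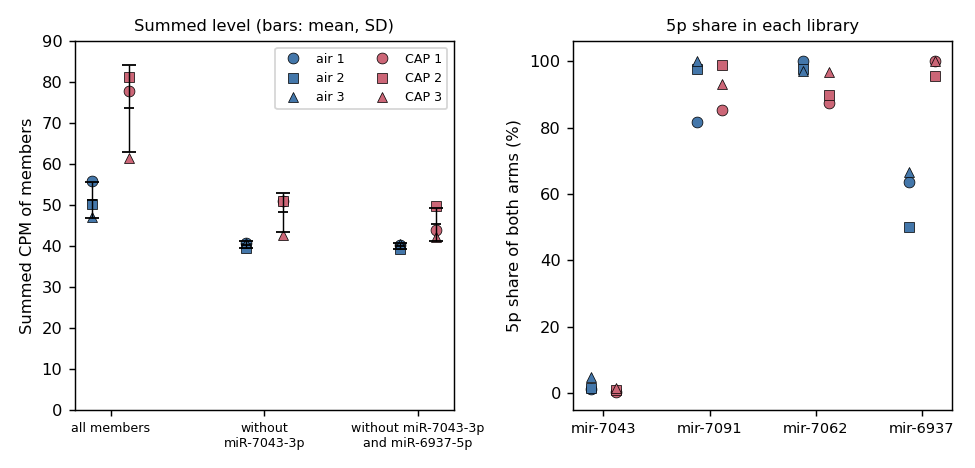
Left, summed CPM of all members, of the members without miR-7043-3p and of those without miR-7043-3p and miR-6937-5p, per library with the mean and SD of each group (air blue, CAP red). Right, the 5p share in percent of both arms per library for 4 precursors. The gap between groups narrows from a ratio of 1.44 to 1.13 on the left, and on the right mir-6937 is the precursor whose air (50 to 66.7%) and CAP (95.5 to 100%) libraries lie far apart.

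For comparison, 36 names outside the range with at least 10 counts sat on precursors at an intron end. They had a median of 69.5 counts. Of the 21 that were tested, 4 were higher and 1 lower at an unadjusted p under 0.05 by edgeR. Of all tested names, 11.5% were higher and 9.45% lower at that p. Log2 FC in the list ran from -0.91 to 0.77, with a median of 0.20. Among these names miR-877-3p, a long-known mirtron that the study lists as changed in these libraries, was at 6.15 ± 0.41 CPM in air and 9.31 ± 1.03 CPM in CAP (SD, n = 3, log2 FC 0.60, SE 0.16, adjusted p = 0.146 by edgeR). The long-known mirtron miR-702-3p had a log2 FC of 0.20 (SE 0.57). Late-numbered names outside the range (25 with at least 10 counts) had a median log2 FC of 0.16 over the 9 tested, of which 3 were higher and 0 lower at an unadjusted p under 0.05 by edgeR. No difference between these lists and the members was tested.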

How the data were processed

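The study prepared QIAseq miRNA libraries, read them on a NextSeq 500, removed adapters (Trimmomatic) and used mirDeep2 with Bowtie to map reads to mm10 and quantify them against miRBase. In their processing notes the submitters add bcl2fastq 20.0.422. The authors deposited raw read counts, 1 column per library, for each mature miRNA on each precursor. Collapsing of reads by molecular identifiers was not stated, so intervals and limits cover counting error only, and ligation bias differs between miRNAs. A read that matches several precursors can be counted at each, and the arms of miR-6967 had identical rows for both of its precursors. For each name 1 row, that of highest total, was used.

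Counts were tested with edgeR 4.0.16 (R 4.3.3, TMM scaling, default expression filter, quasi-likelihood fit on group, Benjamini-Hochberg adjustment over 677 names). DESeq2 1.42.0, the study's tool, limma-voom (limma 3.58.1), other scalings, filters, row choices, a replicate block and leaving out each library were alternatives. CPM are TMM-scaled. The script was tested on simulated counts. Groups came from the sample titles. The labels number the air libraries 1, 2 and 4 and the CAP libraries 8, 9 and 10, so library order, if these give it, cannot be told apart from group. Hairpin positions and sequences came from RefSeq on GRCm38.p6, the assembly that mm10 denotes, and introns from GENCODE. Arm shares were compared by exact permutation with scipy 1.17.1, and figures drawn with matplotlib 3.10.9.

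Members and lists were chosen with earlier results of these data known. Members named were the 12 of highest summed count, those at an unadjusted p under 0.05 in edgeR, the members the study lists as changed, both arms of precursors with at least 50 counts, and the names nearest the threshold of 10 counts.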

Additional observations from a re-analysis of the deposited data

How the results depend on the processing

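No member passed the adjusted threshold in edgeR, also with any 1 library left out (0 in each). The number was 1 without a filter on low counts, with DESeq2 and with the likelihood ratio test, and 2 with DESeq2 on names of at least 10 counts. With a library left out as well, it was 0 to 2 without a filter (0 without air replicate 3) and 0 to 2 with DESeq2 on names of at least 10 counts. Members higher at an unadjusted p under 0.05 numbered 2, or 2 to 3 with a library left out, but 7 without a filter (7, 8 or 9 with a library left out as well), 1 with DESeq2 and 2 to 4 with DESeq2 on names of at least 10 counts and a library left out. Members lower numbered 0, also with any 1 library left out, but 3 without a filter (1, 2 or 4 with a library left out as well) and 1 with DESeq2 on names of at least 10 counts (0 to 1 with a library left out as well). Members without overlap between groups numbered 3 of 17, but 15 of 115 without a filter, where 16.4% of all names did not overlap. Among the 988 names with at least 10 counts, as all members have, that share was 24.1%. With a library left out, members without overlap numbered 3 to 8. There 23 to 26 members were tested and 36.0 to 42.6% of all tested names did not overlap. With DESeq2 on names of at least 10 counts, miR-7043-3p reached an adjusted p of 0.076 once air replicate 2 was dropped and 0.052 once CAP replicate 2 was. In edgeR with no filter it reached 0.099 once air replicate 3 was dropped. Over all its alternatives the adjusted p ran from 4.3e-06 to 0.340.

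Upper-quartile scaling turned the log2 FC of miR-7062-5p, miR-7025-3p and miR-7014-5p to 0.060, 0.047 and 0.053, as it moved the median log2 FC of all tested names by 0.15. The sum ratio was 1.20 without miR-7043-3p and 1.13 without miR-6937-5p as well. A minimum of 20 counts left 75 members. Detection with 3 counts averaged 79.3 members in air and 78.0 in CAP, and the expected air number at the smallest depth was 105.5. The mean 5p share was 47.1% in air and 45.4% in CAP as a mean over precursors, and 49.0% and 52.3% without miR-7043-3p. The cause of the other changes was not tested.

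None of the following members was called, and leaving out 1 library turned the sign of their log2 FC. The range was -0.23 to 0.019 for miR-7062-5p, -0.37 to 0.058 for miR-7014-5p, -0.52 to 0.14 for miR-6948-3p (above 0 without air replicate 2), -0.024 to 1.23 for miR-6983-3p (below 0 without air replicate 3) and -0.062 to 1.12 for miR-7042-3p (below 0 without CAP replicate 1). Without a filter and with DESeq2 on names of at least 10 counts, leaving out a library turned the sign as follows. Without CAP replicate 1 the values were 0.032 and 0.031 for miR-7062-5p, 0.0085 and 0.0089 for miR-7025-3p, 0.11 and 0.11 for miR-7014-5p and -0.015 and -0.044 for miR-7042-3p. Without air replicate 2 they were 0.038 and 0.029 for miR-7062-5p and 0.16 and 0.15 for miR-6948-3p. Dropping air replicate 1 gave 0.056 and 0.043 for miR-7014-5p. Dropping air replicate 3 gave 0.066 and 0.036 for that member, and -0.019 for miR-6983-3p in DESeq2.

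With replicate number as a block the count of members called was 0 and 2 were higher at an unadjusted p under 0.05. The log2 FC under the block was 1.28 for miR-7043-3p and 1.30 for miR-6955-3p. Deviations of same-numbered libraries correlated at 0.02, -0.02 and 0.14. These values gave no sign of pairing, but with 3 libraries in each group they cannot exclude it. The replicate numbers were those of the sample titles. The library names carry other numbers, and a pairing by those was not checked.

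Depth is a limit, as 98 members had too few counts for the test. The DESeq2 fits on names of at least 10 counts, the fits without a filter that leave out a library, and the sums without miR-7043-3p or miR-6937-5p and the arm shares without both were chosen after seeing the data.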
